A study of Mus musculus with 8 samples.

Results

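The surface markers by which mouse hematopoietic stem cells (HSCs) are sorted were followed at the mRNA level in HSCs with and without Mitol. The 10 genes were taken from the count table by their symbols, out of 22065 named genes. Slamf1 (CD150), Cd48 and Procr (EPCR) encode proteins stained in the sort, and Kit (CD117) encodes the protein used to enrich the cells and to define long-term HSCs in the study. Ly6a (Sca-1), Flt3, Cd34, Esam, Cd27 and Tek (Tie2) are markers of HSCs or progenitors that the stated HSC gate left out. The comparison asked whether cells that passed the same gate in both genotypes also carried the same marker transcripts. All 10 genes passed the expression filter and were among the 16444 genes tested.

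The data hold 4 Mitol KO and 4 control libraries from bone marrow, each made from 100 sorted CD150+ CD48- EPCR+ Lineage- cells of C57BL/6 mice aged 8 to 10 weeks. Both groups carried floxed Mitol alleles and were injected with Poly:IC, and cells were taken 1 week later. KO mice carried MX1-cre, control mice did not. MX1-cre is switched on by interferon, which Poly:IC evokes, and it acts in many hematopoietic and other cells besides HSCs. The labels do not say whether the libraries of a group came from separate mice, so the p-values measure the spread between these libraries, which may be technical.

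HSCs are rare bone marrow cells that renew themselves and give rise to all blood lineages. No single surface protein defines them, so a sort combines proteins that HSCs carry with proteins that appear as cells commit. Among cells without lineage markers, CD150 and EPCR are found on long-term HSCs, CD48 appears on multipotent and later progenitors, and c-Kit is shared by HSCs and most early progenitors. A sort reads protein at the cell surface, whereas the libraries report mRNA. In a pool of 100 cells, fewer cells of a type and less RNA per cell cannot be told apart.

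Counts on named genes summed to between 7214935 and 12398138 per library. Marchf5, which encodes MITOL, had between 232 and 308 normalized counts in KO and between 262 and 333 in control libraries, which is -0.15 ± 0.13 on the log2 scale (SE; adjusted p = 0.498 in the edgeR fit across all genes). The whole-gene count therefore did not mark the deleted libraries, and counts per gene cannot separate deleted from remaining exons. Of the exon bases of Marchf5, 11.7% are shared with other genes. The study itself checked the deletion by PCR of the gene. KO replicate 3 stood apart in several red-cell transcripts. Slc4a1, which encodes the anion exchanger of the red-cell membrane, had 1387 normalized counts there and at most 13.2 in any other library. Other red-cell genes were high in KO replicate 4 as well. Ermap had 249 normalized counts in KO replicate 4 and 138 in KO replicate 3, and at most 9.58 in control libraries. Values without KO replicate 3 and without KO replicate 4 are given where the 2 called markers are described.

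Of the 10 markers, 1 rose (Cd48), 1 fell (Kit) and 8 did not pass the threshold, which was a Benjamini-Hochberg adjusted p under 0.05 over all tested genes in the quasi-likelihood fit of edgeR. Among all tested genes 8.43% passed, 4.68% as higher and 3.75% as lower in KO, so 2 of 10 does not set the markers apart from the background. At an unadjusted p under 0.05, 6 of the 10 markers passed by edgeR and 6 by DESeq2, as did 26.4% and 27.0% of all tested genes. The KO and control libraries did not overlap for 4 of the 10 markers, 3 higher (Slamf1, Cd48, Esam) and 1 lower (Kit) in KO, against 15.4% of all tested genes. The median log2 fold change of the 10 markers was 0.25, and that of all tested genes was -0.02.

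**Figure D1:**
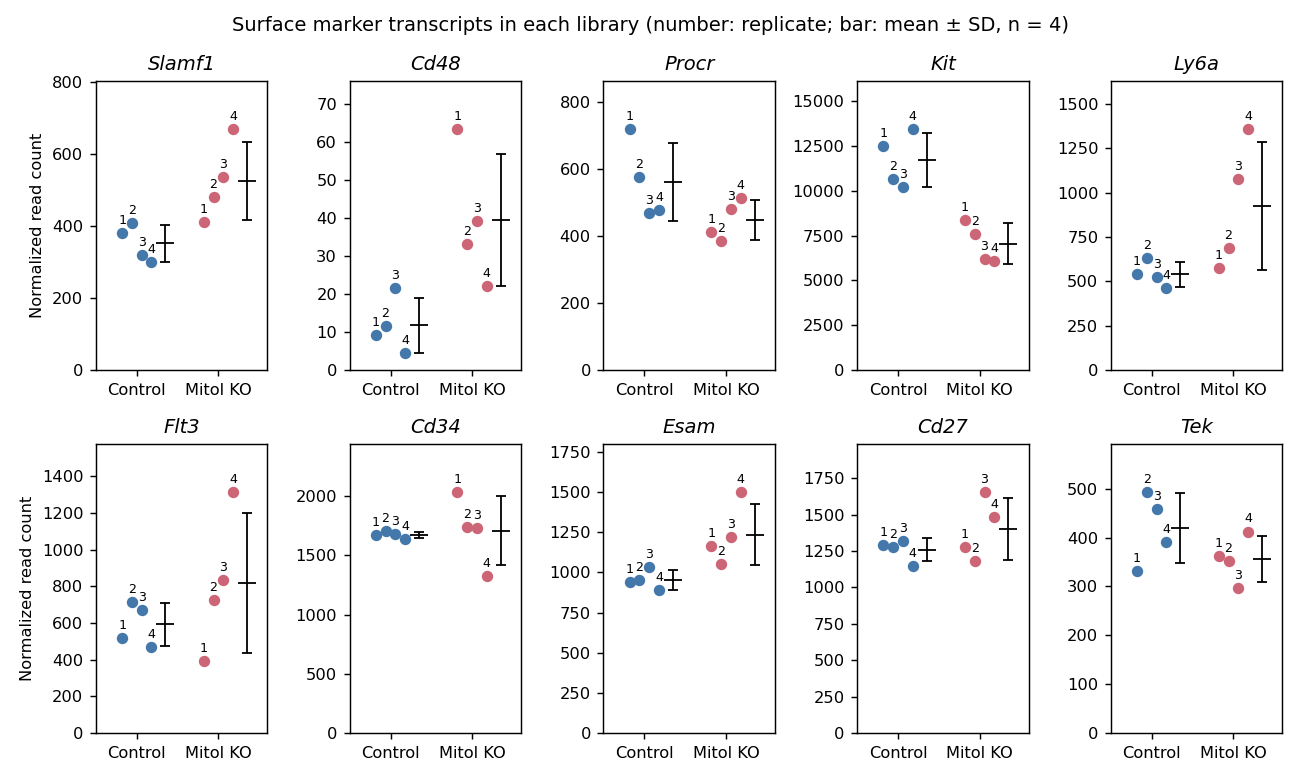
Normalized read counts (counts divided by the library's size factor, linear axes from 0) of the 10 surface marker transcripts in each control and Mitol KO library, with the replicate number beside each point and the mean ± SD of 4 libraries as a bar. All KO libraries lie below all control libraries for Kit and above them for Cd48, Slamf1 and Esam, and the KO points for Ly6a and Flt3 spread more widely than the control points.

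Kit is the receptor for stem cell factor and a tyrosine kinase on which HSC maintenance depends. Normalized Kit counts were 8386, 7588, 6192 and 6061 in KO replicates 1 to 4, and 12494, 10681, 10221 and 13429 in control replicates 1 to 4. Every KO library was below every control library. Group means were 7057 ± 1123 in KO and 11706 ± 1511 in control HSCs (SD, n = 4 each). The log2 fold change was -0.75 (standard error 0.12, 95% interval from -1.01 to -0.49, edgeR adjusted p = 0.00705). Relative to the other transcripts of a library, Kit was thus 1.68 times as high in control HSCs. Kit stayed past the threshold with each of the 8 libraries left out, at log2 fold changes between -0.84 and -0.66 and adjusted p-values from 0.00529 to 0.0325. Without KO replicate 3, the library with the most Slc4a1, the value was -0.68 (edgeR adjusted p = 0.0325). Without KO replicate 4 it was -0.66 (edgeR adjusted p = 0.00529). It also stayed past the threshold under all 8 other settings of normalization, filter, block and tool, between -0.82 and -0.72.

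Cd48, also known as SLAMF2, encodes a glycolipid-anchored protein that binds CD244, and its absence from the surface was required in the sort. Cd48 was the least abundant of the markers, with raw counts of 81, 32, 43 and 21 in KO replicates 1 to 4 and of 7, 11, 23 and 5 in control replicates 1 to 4. After scaling these were 63.4, 33.3, 39.4 and 22.2 normalized counts in KO and 9.23, 11.7, 21.7 and 4.49 in control libraries. On this scale the groups did not overlap, but by library totals they did. The lowest KO library, replicate 4, and the highest control library, replicate 3, were nearly equal. Their 95% Poisson intervals ran from 13.8 to 34.0 and from 13.7 to 32.5 normalized counts. Such intervals cover counting error only, since PCR copies of one molecule cannot be recognized in these libraries. Means were 39.6 ± 17.4 in KO and 11.8 ± 7.24 in control HSCs (SD, n = 4 each). Cd48 rose by 1.72 on the log2 scale, or 3.30-fold (standard error 0.48, 95% interval from 0.69 to 2.76, edgeR adjusted p = 0.0450). This call was lost when any one of KO replicates 1, 2 or 3 or control replicates 1, 2 or 4 was left out, with log2 fold changes between 1.40 and 1.80 there and adjusted p-values up to 0.138. Without KO replicate 3 the value was 1.74 (edgeR adjusted p = 0.0912), and without KO replicate 4 it was 1.93 (edgeR adjusted p = 0.0194).

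The windows before the starts of the 2 called genes are shown because Kit and Cd48 were the markers past the threshold by edgeR. They were read from GRCm39, on the plus strand, as the 250 bases before the start of the gene's canonical GENCODE transcript, at chr5:75735326-75735575 for Kit and chr1:171509323-171509572 for Cd48. Capitals mark motif letters on either strand.
Kit: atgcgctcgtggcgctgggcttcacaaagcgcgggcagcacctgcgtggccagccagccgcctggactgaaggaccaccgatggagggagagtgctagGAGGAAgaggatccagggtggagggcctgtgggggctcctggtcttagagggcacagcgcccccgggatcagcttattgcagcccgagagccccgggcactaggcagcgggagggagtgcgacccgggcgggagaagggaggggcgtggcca
Cd48: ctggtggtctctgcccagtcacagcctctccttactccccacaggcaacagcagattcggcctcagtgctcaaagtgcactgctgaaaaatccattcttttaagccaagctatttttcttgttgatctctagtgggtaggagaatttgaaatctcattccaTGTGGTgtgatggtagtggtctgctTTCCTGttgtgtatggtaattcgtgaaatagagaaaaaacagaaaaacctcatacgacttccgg
The Kit window was rich in G and C (69.2% against 44.8% in that of Cd48). The motifs searched, on both strands and without one containing another, were AGATAA for GATA factors, TGTGGT for RUNX, CAGGAA for ETS factors, GAGGAA for PU.1 and TTCNNNGAA for STAT factors. In windows of 300 bases that also took in the 50 bases from the start, they were held by 10.6%, 15.3%, 28.9%, 27.5% and 8.81% of 21770 promoters. Kit held GAGGAA once, and Cd48 held TGTGGT once and CAGGAA at 2 positions, of which 1 lay past the printed stretch. Of the 10 markers, 6 held CAGGAA (Slamf1, Cd48, Procr, Cd34, Esam and Tek), 3 held GAGGAA (Kit, Ly6a and Esam), 1 held AGATAA (Ly6a) and none TTCNNNGAA. These matches describe letters in a window and not bound sites.

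Slamf1 encodes CD150, the founding SLAM receptor and the positive partner of CD48 in the sort. The 2 genes are neighbours on chromosome 1, both on the plus strand, Cd48 from 171509573 to 171532826 and Slamf1 from 171594695 to 171628764 on GRCm39, with a gap of 61.9 kb that holds 0 protein-coding genes. Normalized Slamf1 counts were 412, 480.1, 537 and 669 in KO replicates 1 to 4 and 381, 409.7, 320.3 and 299 in control replicates 1 to 4. All KO libraries were above all control libraries on this scale, KO replicate 1 and control replicate 2 by a narrow margin. By library totals the groups overlapped. Means were 525 ± 109 in KO and 353 ± 51.6 in control HSCs (SD, n = 4 each). The log2 fold change was 0.56 (standard error 0.16, 95% interval from 0.21 to 0.90), and the adjusted p of edgeR's test was 0.0501, just outside the threshold. Slamf1 passed by DESeq2 (adjusted p = 0.0125) and, by edgeR, without KO replicate 1 (adjusted p = 0.0434), and its log2 fold change stayed between 0.44 and 0.66 with each library left out. Both SLAM transcripts of the gate thus had higher values in KO libraries, although the sort selected for one protein and against the other.

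Procr encodes EPCR, the endothelial protein C receptor, which is strongly expressed on HSCs. Its normalized counts were 411, 387, 481 and 514 in KO replicates 1 to 4 and 719, 577, 470.0 and 478 in control replicates 1 to 4. The groups overlapped, as KO replicates 3 and 4 were above control replicates 3 and 4. The log2 fold change was -0.34 (standard error 0.15, 95% interval from -0.67 to -0.01, edgeR adjusted p = 0.179), and it did not pass the threshold with any library left out or under any other setting.

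**Figure D2:**
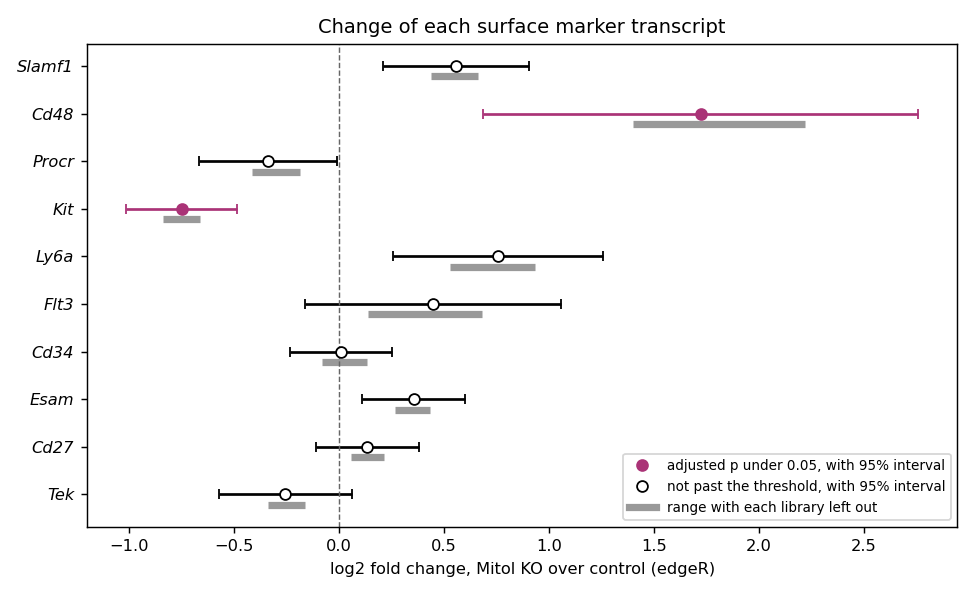
Log2 fold changes of the 10 surface marker transcripts, Mitol KO over control, by edgeR with 95% intervals, and as grey bars the range of the value with each of the 8 libraries left out in turn. Kit at -0.75 and Cd48 at 1.72 pass the threshold, and the intervals of Slamf1, Ly6a, Esam and Procr leave out 0 before adjustment over all genes.

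Ly6a, Flt3 and Cd34 are the markers of the classical scheme, in which HSCs are Sca-1 positive and stain little for Flt3 and CD34. Ly6a encodes Sca-1, a glycolipid-anchored protein of the Ly6 family. Its normalized counts were 574, 689, 1078 and 1356 in KO replicates 1 to 4 and 542, 634, 524 and 463 in control replicates 1 to 4. KO replicates 3 and 4 were well above the control range, KO replicate 2 was slightly above it and KO replicate 1 lay within it. The log2 fold change was 0.76 (standard error 0.23, 95% interval from 0.26 to 1.26, edgeR adjusted p = 0.0605). Without KO replicate 1 it passed the threshold, at 0.93 (edgeR adjusted p = 0.0300), and DESeq2 called it with all libraries (adjusted p = 0.0113). Ly6a has close relatives in its gene cluster, 4.80% of its exon bases are shared with an antisense transcript, and how the counting treated such reads is not given in the sources used here.

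Sca-1 is known to be induced by interferon, and both groups had received Poly:IC. Among 19 interferon-stimulated genes, 2 rose, Ifitm3 by 0.59 (standard error 0.08, edgeR adjusted p = 0.00381) and Ly6e by 0.35 on the log2 scale (standard error 0.09, edgeR adjusted p = 0.0311), 1 fell and 16 did not pass. Ifitm3 encodes an antiviral membrane protein and Ly6e a relative of Sca-1. The median log2 fold change of the list was 0.05. Its summed level ran from 12661 to 16744 normalized counts in KO and from 10642 to 12477 in control libraries, without overlap. The 2 genes that rose weigh heavily in this sum, so it does not speak for the whole list. Ifitm3 had means of 4537 in KO and 2972 in control libraries, and Ly6e of 3150 and 2438. The part of interferon in the Ly6a values was not tested. The Ifitm3 call held with each library left out, and that of Ly6e held with 4 of the 8 left out in turn (adjusted p up to 0.0960).

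Flt3 is a receptor tyrosine kinase of lymphoid-primed progenitors, and Cd34 encodes a sialomucin that is low on adult long-term HSCs and higher on their progeny. Flt3 had 393, 724, 837 and 1315 normalized counts in KO replicates 1 to 4, and between 467 and 712 in control libraries. KO replicate 1 was below and KO replicates 2 to 4 were above the whole control range, and the log2 fold change of 0.45 did not pass (95% interval from -0.16 to 1.06, edgeR adjusted p = 0.337). Cd34 had the same mean in both groups within the spread, 1708 ± 291 in KO and 1675 ± 26.0 in control HSCs (SD, n = 4 each). Its log2 fold change was 0.01 (95% interval from -0.23 to 0.25, edgeR adjusted p = 0.969), and its sign changed with the scaling. The control libraries lay between 1642 and 1705 normalized counts and the KO libraries between 1327 in replicate 4 and 2036 in replicate 1.

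Esam and Tek encode proteins that HSCs share with endothelial cells, an adhesion molecule of cell junctions and the receptor for angiopoietins, and Cd27 encodes a receptor of the TNF receptor family. Normalized Esam counts were 1165, 1051, 1223 and 1501 in KO replicates 1 to 4 and 939, 950.2, 1033 and 889 in control replicates 1 to 4. All KO libraries were above all control libraries on this scale, but not by library totals. The log2 fold change of 0.36 did not pass (standard error 0.11, 95% interval from 0.11 to 0.60, edgeR adjusted p = 0.0682), whereas DESeq2 called it (adjusted p = 0.0296). Tek ran from 298 to 413 in KO and from 332 to 494 in control libraries, a log2 fold change of -0.26 (95% interval from -0.57 to 0.06, edgeR adjusted p = 0.289). Cd27 ran from 1179 to 1656 in KO and from 1145 to 1322 in control libraries, a log2 fold change of 0.14 (95% interval from -0.11 to 0.38, edgeR adjusted p = 0.479). For both genes the groups overlapped. Of the exon bases of Cd27, 5.51% are shared with other genes, among them Vamp1 on the opposite strand, so reads there could not be assigned with certainty.

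Endothelial markers were at unequal levels. Of 9 endothelial markers 6 were tested and 0 passed the threshold. Their summed level was 258 to 414 normalized counts in KO and 279 to 383 in control libraries. Cdh5, which encodes the cadherin that defines endothelium, had at most 7.04 in any library. Emcn ran from 136 to 228 over all libraries, and Cldn5 from 2.35 to 134 in KO and from 9.88 to 39.6 in control libraries.

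KO replicates 1 and 4 were the extremes of the KO group for 6 of 10 markers, in either direction. The share of all genes with these extremes was not counted, so this number does not set the markers apart. Over genes at large, these libraries were also the KO pair that differed most. Their chi-square of counts per degree of freedom was 26.9, against 6.92 to 21.9 for the other KO pairs. KO replicate 4 was the highest KO library for 6 markers and the lowest for 3, while KO replicate 1 was the highest for 3 and the lowest for 3. KO replicate 1 held the most Cd48, Kit and Cd34, and KO replicate 4 the most Slamf1, Procr, Ly6a, Flt3, Esam and Tek. The coefficient of variation was larger in KO than in control libraries for 7 of 10 markers, against 51.9% of all tested genes. Its median over the markers was 16.5% in KO and 13.9% in control libraries. It was larger in control libraries for Cd48 (61.5% against 44.0% in KO), Procr (20.7% against 13.3%) and Tek (17.1% against 13.3%). For Cd34 the SD was 291 in KO and 26.0 in control libraries, and for Ly6a it was 360.0 and 70.7.

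Per length, as CPM (library-scaled counts) per kilobase of annotated exon, Kit was the most abundant marker in control HSCs (135 ± 20.2, SD, n = 4). It was followed by Cd27 at 58.4, Esam at 34.0, Procr at 29.7, Cd34 at 15.2, Ly6a at 12.6, Flt3 at 9.86, Tek at 7.60, Slamf1 at 6.20 and Cd48 at 0.879. Ranges of neighbours in that order were apart between Kit and Cd27, Cd27 and Esam, Procr and Cd34, and Slamf1 and Cd48, and overlapped for all other neighbours. In KO HSCs the order was Kit at 76.9, Cd27 at 61.7, Esam at 41.9, Procr at 22.7, Ly6a at 20.6, Cd34 at 14.8, Flt3 at 12.96, Slamf1 at 8.78, Tek at 6.13 and Cd48 at 2.83. There Kit and Cd27 overlapped in range, and only Cd27 and Esam, Esam and Procr, and Tek and Cd48 were apart. Cd48 was thus the lowest marker in both groups, and it was below Slamf1 in every library. The length joins all annotated exons of a gene, whichever transcript the cells express, so the order depends on that choice. In control libraries Cd34 had a higher mean normalized count than Cd27 (1675 and 1260), but it has 11961 exon bases against 2343.

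**Figure D3:**
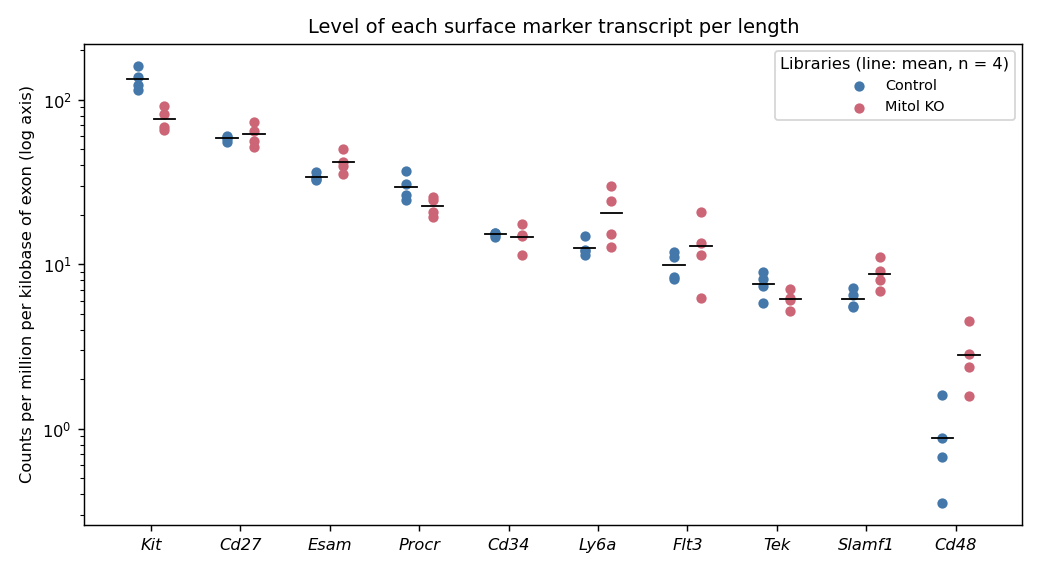
Level of each surface marker transcript in CPM per kilobase of annotated exon (log axis), ordered by the control mean, with each library as a point and the mean of 4 libraries as a line. Kit leads in both groups, from 135 in control to 76.9 in Mitol KO HSCs, and Cd48 is the lowest in both, at 0.879 and 2.83.

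Ratios of 2 markers within a library do not depend on scaling between libraries. Kit to Ly6a, per kilobase, was 7.17, 5.40, 2.82 and 2.19 in KO replicates 1 to 4 and 11.3, 8.26, 9.57 and 14.2 in control replicates 1 to 4. All KO libraries were below all control libraries, and the mean log2 ratio was 1.98 ± 0.80 in KO and 3.41 ± 0.34 in control HSCs (SD, n = 4 each). Cd48 to Slamf1 was 0.657, 0.296, 0.313 and 0.142 in KO replicates 1 to 4 and 0.103, 0.122, 0.289 and 0.0641 in control replicates 1 to 4. These groups overlapped, since control replicate 3 lay above KO replicate 4. Flt3 to Slamf1 ran from 0.903 to 1.86 in KO and from 1.29 to 1.98 in control libraries, and Cd34 to Procr from 0.441 to 0.846 in KO and from 0.398 to 0.611 in control libraries, with overlap in both. Ratios were given without a test.

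**Figure D4:**
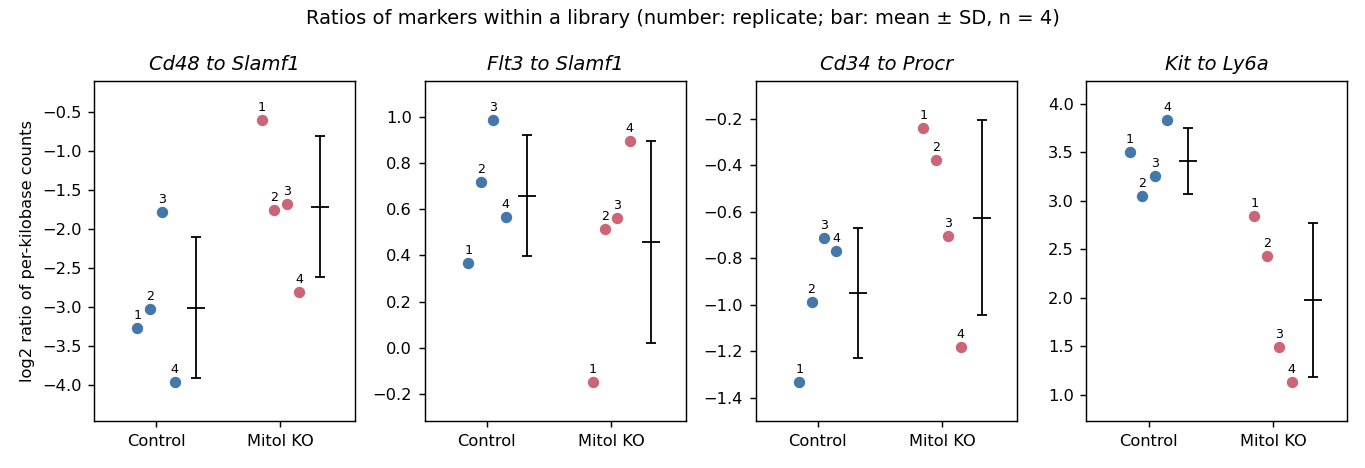
Log2 ratios of per-kilobase counts of 2 markers within the same library for control and Mitol KO HSCs, with the replicate number beside each point and the mean ± SD of 4 libraries as a bar; each panel has its own axis, which does not start at 0. The groups are apart for Kit to Ly6a alone, at means of 1.98 in KO and 3.41 in control HSCs.

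The other SLAM receptors and the binding partners of the markers were followed as lists. Of 9 other SLAM family genes 4 were tested, of which 0 rose and 1 fell. Cd84, a SLAM receptor that binds itself, was 347 to 519 normalized counts in KO and 533 to 779 in control libraries, a log2 fold change of -0.64 (standard error 0.16, edgeR adjusted p = 0.0306). That call held with only 3 of the 8 libraries left out in turn, KO replicate 4, control replicate 1 or control replicate 3, with adjusted p-values up to 0.0886 for the others. Cd244a, the receptor for CD48, ran from 50.1 to 151 in KO and from 19.8 to 70.2 in control libraries with overlap (log2 fold change 0.86, edgeR adjusted p = 0.215).

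Of 17 ligands, co-receptors and adaptors of the markers, 14 were tested, of which 0 rose, 3 fell and 11 did not pass, with a median log2 fold change of -0.03. Angpt1, the ligand of Tie2, which HSCs also make themselves, was 1221 to 1459 normalized counts in KO and 1877 to 2354 in control libraries (log2 fold change -0.67, standard error 0.09, edgeR adjusted p = 0.00428), and it stayed past the threshold with each library left out. Tie1, the receptor that pairs with Tie2, was lower with a log2 fold change of -0.28 (SE 0.07, edgeR adjusted p = 0.0346), and Traf5, an adaptor of CD27, one of -0.78 (standard error 0.22, edgeR adjusted p = 0.0462). The calls of Tie1 and Traf5 were lost with each of the 8 libraries left out in turn (adjusted p up to 0.0988 and 0.125). Flt3l, which encodes the Flt3 ligand, did not pass (log2 fold change -0.40, edgeR adjusted p = 0.102), nor did F2r, which encodes the PAR1 receptor that signals with EPCR (log2 fold change -0.10, edgeR adjusted p = 0.688). Kitl, the ligand of Kit, had at most 8.24 normalized counts in any library and was not tested, and Cd70, the ligand of CD27, has no row in the table analysed here.

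Among 18 further surface proteins of HSCs, 1 rose, 3 fell and 14 did not pass, with a median log2 fold change of 0.24. Adgrg1, an adhesion receptor also called GPR56, fell by 0.40 on the log2 scale (standard error 0.07, edgeR adjusted p = 0.00986), and Eng, the TGF-beta co-receptor endoglin, by 0.28 (standard error 0.07, edgeR adjusted p = 0.0304). Thy1, a glycolipid-anchored protein low on mouse HSCs, was 173 to 206 normalized counts in KO and 59.3 to 122 in control libraries, a rise of 1.19 on the log2 scale (standard error 0.22, edgeR adjusted p = 0.0124). Itga2b (CD41), an integrin of megakaryocytes and of some HSCs, ran from 286 to 1440 in KO and from 519 to 589 in control libraries, with the KO replicates on both sides of the control range (log2 fold change 0.49, edgeR adjusted p = 0.476). Adgrg1 and Thy1 stayed past the threshold with each library left out, whereas Eng did so only without KO replicate 4 or control replicate 4 (adjusted p up to 0.0906 for the others).

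Among surface proteins of progenitors, 14 of 19 were tested, of which 2 rose, 0 fell and 12 did not pass, with a median log2 fold change of 0.44. Tfrc, the transferrin receptor of dividing and red-cell forming cells, was higher by 0.68 on the log2 scale (standard error 0.19, edgeR adjusted p = 0.0450), a call that held only without KO replicate 1 or KO replicate 4 (adjusted p up to 0.109 for the others).

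Of 10 genes of long-term HSCs that are no sorting markers, 0 rose, 2 fell and 8 did not pass, and after TMM scaling 0 of the 10 had a log2 fold change above 0, with a median of -0.18 against -0.02 for all tested genes. Hlf, a transcription factor that among blood cells is largely restricted to HSCs, was 4609 to 5968 normalized counts in KO and 8459 to 10810 in control libraries (log2 fold change -0.79, standard error 0.11, edgeR adjusted p = 0.00381). Pdzk1ip1, whose promoter has been used to label HSCs, was 347 to 633 in KO and 740.4 to 932 in control libraries (log2 fold change -0.85, standard error 0.17, edgeR adjusted p = 0.0145). Both calls held with each library left out. The other genes of the list included Mecom, Fgd5 and Meis1, each at 2026 normalized counts or more in every library, while Hoxb5 ran from 57.1 to 117. Stem cell genes of the labelled cell type were thus detected in both genotypes, though not all at equal levels. Meis1 was 5962 to 6398 in KO and 6951 to 7383 in control libraries, without overlap. It did not pass by edgeR (adjusted p = 0.0527), whereas DESeq2 called it (adjusted p = 0.0117).

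**Figure D5:**
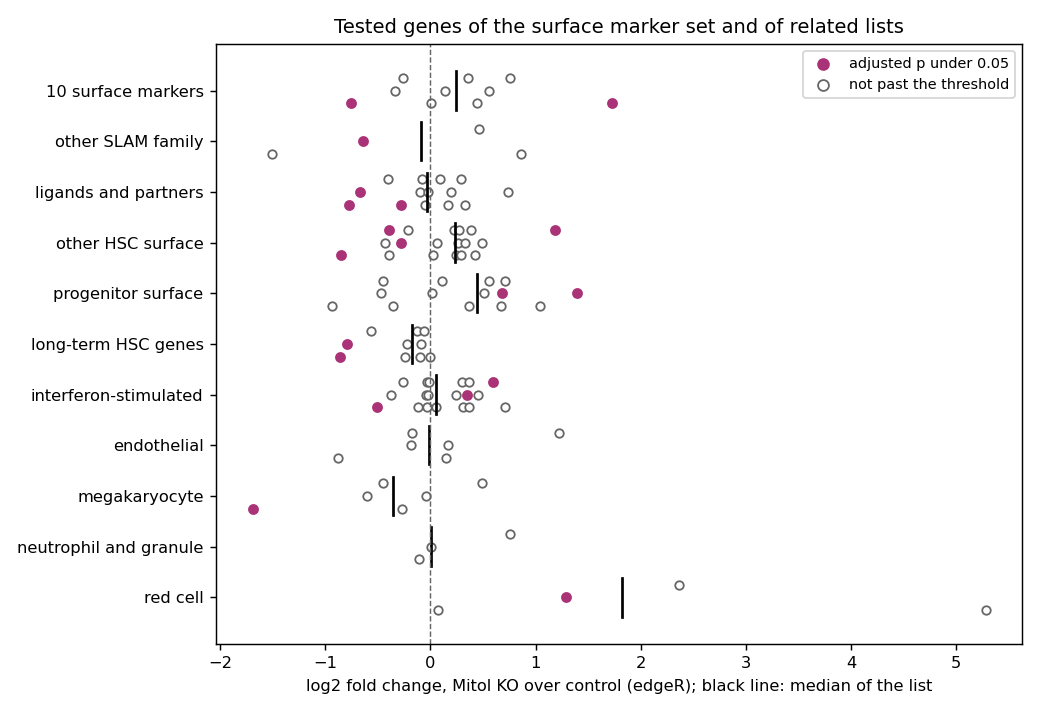
Log2 fold changes, Mitol KO over control by edgeR, of each tested gene of the surface marker set and of related gene lists, with filled points for an adjusted p under 0.05 and a black line at the median of each list. The called genes of the ligand and long-term HSC lists lie left of 0, those of the progenitor surface list right of 0, and the red-cell list reaches furthest to the right.

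The lineage cocktail of the sort held antibodies to Ter-119, CD4, CD8a, B220, Gr-1 and Mac-1. Of 7 genes for these antigens other than Ter-119, which is a red-cell antigen, 4 were tested and 0 passed by edgeR. Itgam, which encodes a chain of Mac-1, was 23.5, 22.9, 61.3 and 76.2 normalized counts in KO replicates 1 to 4 and 17.1, 24.5, 4.71 and 13.5 in control replicates 1 to 4. KO replicates 3 and 4 were above the control range and the other KO libraries within it, at a log2 fold change of 1.61 (edgeR adjusted p = 0.0768), which DESeq2 called (adjusted p = 0.0255). Cd4 ran from 15.9 to 54.3 over all libraries (edgeR adjusted p = 0.258). Ptprc was abundant in every library, between 2781 and 4228, but counts per gene cannot tell the B220 isoform from the other CD45 isoforms. Of the B-lineage, T-cell, neutrophil, and mast-cell and basophil lists, 1, 2, 3 and 1 genes were tested and 0 passed by edgeR in any. Their summed levels in normalized counts were 136 to 150.3, 189 to 259, 2137 to 2577 and 11.4 to 27.5 in KO libraries, and 145 to 204, 172 to 200.5, 1980.0 to 2398 and 11.3 to 28.7 in control libraries, with overlap in each. Within these lists levels differed widely. In the T-cell list Cd3d, a chain of the T-cell receptor complex, had at most 6.59 normalized counts, while Lck, a kinase of T cells, ran from 153 to 229 in KO and from 136 to 152 in control libraries, narrowly without overlap (edgeR adjusted p = 0.208). In the neutrophil list Mpo had at most 11.9, while Lyz2 ran from 1530 to 1782 over all libraries. Prtn3, a granule protease, ran from 462 to 1006 in KO and from 332 to 566 in control libraries, a log2 fold change of 0.76 (edgeR adjusted p = 0.0674) that DESeq2 called (adjusted p = 0.0155). S100a8 and S100a9 of the same list went the other way, and the filter kept them out of the main test. S100a8 had at most 1.57 normalized counts in KO and 0, 31.9, 19.8 and 51.2 in control replicates 1 to 4. S100a9 had 0 in every KO library and 2.64, 21.3, 11.3 and 20.7 in control replicates 1 to 4. The part of other cell types in the marker values was not tested.

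Red-cell transcripts moved with the genotype. The summed level of 9 red-cell genes ran from 978 to 4984 normalized counts in KO and from 390 to 797 in control libraries, without overlap, and 1 of the 4 tested genes passed. Hbb-bt, an adult beta globin, was 815, 801, 1432 and 1408 in KO replicates 1 to 4 and 595, 591, 487 and 144 in control replicates 1 to 4 (log2 fold change 1.29, standard error 0.35, edgeR adjusted p = 0.0442), a call that held only without KO replicate 4, control replicate 1 or control replicate 4 (adjusted p up to 0.105 for the others). Hbb-bs, Hba-a1 and Slc4a1 were at 1048, 388 and 1387 in KO replicate 3, whereas no other library had more than 19.7, 7.91 and 13.2. Ermap and Klf1 were at 138 and 92.5 in KO replicate 3 and at 249 and 103 in KO replicate 4. Control libraries had at most 9.58 and 19.8 of these genes. Reads of near-identical globin copies could have been split between them. The part of red-cell RNA in the values of the surface markers was not tested.

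Of 8 megakaryocyte genes 6 were tested, of which 0 rose, 1 fell and 5 did not pass. Pf4, a platelet chemokine, was 10.985 to 17.2 normalized counts in KO and 26.4 to 62.0 in control libraries (log2 fold change -1.69, standard error 0.37, edgeR adjusted p = 0.0202). The call was lost without KO replicate 2, KO replicate 3 or control replicate 4 (adjusted p up to 0.0641).

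As a description, the genes whose log2 CPM followed the stained markers most closely over the 8 libraries were sought among 12013 genes. They were Clnk, Mcf2l and Camk2a for Slamf1 (Pearson r of 0.977, 0.973 and 0.972), Rbm27, Rer1 and Cnot11 for Cd48 (0.988, 0.982 and 0.975), Pla2g6, P4htm and Rcn3 for Procr (0.978, 0.976 and 0.966) and Atp8b2, Fam222b and Dgkg for Kit (0.988, 0.988 and 0.985). The 8 points share the 2 genotypes and their depths, and with so many genes searched high values arise readily.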

How the data were processed

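Each library was made from 100 sorted cells with a Nextera XT kit. Per the methods and the labels, reads were single-end and 75 bp long, and the authors used STAR (version 2.7.10a) with mm39 for alignment, SAMtools (version 1.10) for merging and Subread (version 2.0.0) for read counts per gene. The annotation and strand setting are not given in the sources used here. The deposited values are raw counts, without normalization. The table holds 23094 rows with at least 11 counts each. Of these, 1029 carry no gene symbol (0.335% to 0.467% of a library's counts) and were left out of totals and tests.

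From the counts, 16444 genes that passed the default filter were fitted at once with edgeR (version 4.0.16, R version 4.3.3) by the quasi-likelihood test with TMM scaling and condition as the sole term. P-values were adjusted by Benjamini-Hochberg over all of them, with a threshold of 0.05. The study used DESeq2, which was an alternative here. Normalized counts are counts divided by DESeq2 size factors (version 1.42.0). Intervals of fold changes use the moderated degrees of freedom of the fit. Levels per length are CPM of the library total per kilobase of annotated exon. Positions, exon lengths and windows came from GENCODE vM39 on GRCm39, the same assembly as mm39.

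The markers and gene lists were chosen with earlier results of these data known, and no list was tested as a set. Named genes are the 10 markers, Marchf5, every gene past the threshold in a list with 6 or fewer such genes, a fixed set of partners whatever their values, and the 3 genes most like Slamf1, Cd48, Procr and Kit among those with a mean of at least 50 normalized counts. Slc4a1, Cdh5, Cd3d, Lck, Lyz2, Prtn3, Itgam, Mpo and other genes given as levels of other cell types were added after their values were seen. Some genes that this rule names are not reported here. Alternatives covered 3 other scalings, no filter, a filter at a mean of 50 normalized counts, DESeq2, limma-voom (version 3.58.1), the replicate number as a block and each library left out. The fits were tested on simulated data with known fold changes. The depth of 7214935 to 12398138 counts, 4 libraries per group and 100 cells per library limit precision.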

Additional observations from a re-analysis of the deposited data

How the results depend on the processing

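Of the 10 markers, Kit kept its call under every setting run, and Cd48 under every one that could give it a value with all 8 libraries (the filter at a mean of 50 normalized counts removed it). The number of markers past the threshold, 2, became 5 with DESeq2 and 1 with the filter at a mean of 50, and ranged from 1 to 3 with a library left out. The number higher in KO, 1, became 2 with median-ratio scaling and with no filter, 4 with DESeq2 and 0 with the filter at a mean of 50, and ranged from 0 to 2 with a library left out. DESeq2 called Slamf1 (0.57), Ly6a (0.77) and Esam (0.37), and 7 in place of 4 HSC surface, 4 in place of 2 progenitor surface, 1 in place of 0 lineage antigen and 1 in place of 0 neutrophil genes. Slamf1 also passed at 0.57 with median-ratio scaling (adjusted p = 0.0462) and at 0.58 with no filter (adjusted p = 0.0459). The log2 fold change of Cd34, 0.01, turned to -0.054 with upper-quartile scaling, -0.045 with library totals and -0.018 with the filter at a mean of 50, and ranged from -0.080 to 0.13 with a library left out. With a library left out, log2 fold changes ranged from 0.44 to 0.66 for Slamf1, from 1.40 to 2.22 for Cd48, from 0.53 to 0.93 for Ly6a and from -0.23 to 0.0055 for F2r, which turned positive without control replicate 1. The cause of these changes was not tested, beyond the fewer libraries or genes in some fits.

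All genes past the threshold numbered 1386, or 2317 with DESeq2, and ranged from 359 without control replicate 2 to 2501 without KO replicate 4. Of the called genes 55.6% were higher in KO with TMM, 41.3% with upper-quartile scaling and 42.1% with library totals, while the median log2 fold change of all genes stayed between -0.08 and -0.01.

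Libraries share replicate numbers in their titles. Deviations of same-numbered KO and control libraries from their group means correlated at 0.08, -0.07, 0.05 and 0.07, and 2 of the 4 KO libraries correlated best with the control library of their own number, so the numbers were not taken to pair the libraries. With the replicate number as a block, 1652 genes and 2 markers, Kit and Cd48, were past the threshold, and Cd34 was at -0.0060.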
